A study of Mus musculus with 11 samples.

Results

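The data describe 9 genes of the Krüppel-like factor (KLF) family, Klf2, Klf3, Klf4, Klf6, Klf7, Klf9, Klf10, Klf11 and Klf13, in the thymocytes of 11 mice. They are 9 of the 17 Klf genes, and of the 54418 genes, in the table of counts. The genes were selected on their expression in these same mice, so their differences from wt are given as a description, without p-values, and nothing is read from which of them were called. RNA had been sequenced from total thymus cell suspensions of young adult mice aged 8 to 12 weeks on a C57BL/6-WEHI background. The groups were 4 wt mice, 4 Zmat3-/- mice, which lack the RNA binding protein ZMAT3, and 3 Puma-/- p21-/- Zmat3-/- mice (TKO), which also lack the pro-apoptotic BH3-only protein PUMA and the cell cycle inhibitor p21. No treatment of these mice is described, and the knockouts are constitutive, so they are not restricted to thymocytes. Zmat3-/- and TKO mice share the loss of ZMAT3, and a difference between them goes with the loss of PUMA and p21 together.

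KLF proteins are transcription factors that bind GC-rich and CACCC sequences through zinc fingers at their C-terminus, and their N-terminal parts recruit different partners. Klf2, Klf4, Klf6 and Klf7 belong to a class that mostly activates transcription, Klf3 to the class that binds the corepressor CtBP, and Klf9, Klf10, Klf11 and Klf13 to the class that binds the corepressor Sin3A. In the thymus, KLF2 is known for the exit and homing of newly made T cells, whereas KLF4 is known as a brake on T cell proliferation and, elsewhere, as a pluripotency and barrier factor. Several KLF genes, among them Klf4, Klf6 and Klf10, are also known as genes that cells induce quickly upon growth factors or stress.

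Windows around the RefSeq transcription start on GRCm38.p6 were used for 8 of the 9 genes, from 250 bases before to 50 after the start. No window was used for Klf10. The 250 bases before the start are shown for Klf4, Klf6 and Klf11, the genes of the 8 whose level was higher in every mutant mouse than in every wt mouse, and for Klf2, for comparison, whose level was not. They are written 5′ to 3′ on the strand of the gene, and capitals mark every match to the E-box CACGTG.
Klf4: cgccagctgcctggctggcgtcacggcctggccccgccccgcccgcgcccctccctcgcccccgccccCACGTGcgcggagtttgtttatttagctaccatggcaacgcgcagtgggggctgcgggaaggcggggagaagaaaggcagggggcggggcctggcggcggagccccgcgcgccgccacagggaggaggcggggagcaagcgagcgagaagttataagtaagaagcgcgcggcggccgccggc
Klf6: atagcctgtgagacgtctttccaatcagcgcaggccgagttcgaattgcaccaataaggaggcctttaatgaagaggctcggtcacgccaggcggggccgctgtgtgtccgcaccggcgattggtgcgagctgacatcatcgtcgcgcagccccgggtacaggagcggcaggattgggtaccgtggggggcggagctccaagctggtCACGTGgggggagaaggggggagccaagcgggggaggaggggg
Klf11: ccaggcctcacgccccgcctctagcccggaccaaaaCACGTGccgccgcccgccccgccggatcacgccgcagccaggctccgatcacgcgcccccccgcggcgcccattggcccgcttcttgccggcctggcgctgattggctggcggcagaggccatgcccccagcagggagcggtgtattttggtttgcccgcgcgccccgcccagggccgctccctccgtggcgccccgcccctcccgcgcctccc
Klf2: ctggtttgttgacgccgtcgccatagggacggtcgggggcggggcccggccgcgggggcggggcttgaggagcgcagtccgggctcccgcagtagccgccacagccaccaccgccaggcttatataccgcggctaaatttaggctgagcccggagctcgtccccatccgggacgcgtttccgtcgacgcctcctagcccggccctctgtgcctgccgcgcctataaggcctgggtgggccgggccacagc
The 4 stretches lie at chr4:55532476-55532725 on the minus strand for Klf4, and on the plus strand at chr13:5861239-5861488 for Klf6, chr12:24651121-24651370 for Klf11 and chr8:72318812-72319061 for Klf2. The E-box begins at position -182 from the start of Klf4, at -43 from that of Klf6 and at -214 from that of Klf11, with 1 match in each. It was found in none of the windows of Klf2, Klf3, Klf7, Klf9 and Klf13, and in 7.15% of the 32851 mouse windows of the same length.

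Another 8 motifs were searched on both strands of the full windows. GGGCGG, the GC box, was present in the windows of all but Klf9 (35.7% of all windows), and CACCC in those of Klf2, Klf3, Klf7, Klf9 and Klf13 (57.5% of all windows). The core of the cAMP response element, TGACG, was present in the windows of Klf2, Klf3, Klf4, Klf9 and Klf13 (20.8%), and CCAAT in those of Klf6, Klf9, Klf11 and Klf13 (37.4%). The AP-1 site TGANTCA matched only in the window of Klf9 (7.81%). The full cAMP response element TGACGTCA, which contains TGACG, the CArG box and TATAAA matched in none of the 8 windows, against 1.79%, 1.63% and 13.6% of all windows. The motifs were chosen with the levels of the genes known, and a match is a match of letters and not a binding site. The windows were rich in G and C, from 58.3% in Klf7 to 77.7% in Klf11, with 74.3% in Klf4, against a median of 52.7% over all windows.

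The total of estimated counts per mouse ran from 17669715 to 80207003, both in TKO mice. Levels are given as CPM, counts scaled to the size of each library (with TMM factors), with 3 counts corresponding to 0.0403 to 0.167 CPM. All 14 thymocyte-defining genes, such as Cd3e, Rag1 and Bcl11b, were measured in every comparison, with a summed level of 14956 to 17908 CPM in wt mice, of 14771 to 16987 CPM in Zmat3-/- mice and of 15750 to 21015 CPM in those of the TKO group. Single genes of the list differed, with 9 of 14 lower in each comparison with wt (median log2 fold change, log2FC, of -0.25 in Zmat3-/- and -0.18 in TKO mice). None was called differentially expressed by edgeR or DESeq2, with 3 and 1 at an unadjusted p under 0.05 in edgeR, and Cd3e was lower in every Zmat3-/- mouse than in every wt mouse (log2FC -0.47, adjusted p = 0.097). Zmat3 was at 9.88 to 26.8 CPM in wt mice and at 5.34 to 6.85 CPM in Zmat3-/- mice, and at 7.78 to 8.25 CPM in TKO mice, so residual transcript was counted in each mutant. Of the other genes targeted in TKO mice, Bbc3, which encodes PUMA, was at 12.9 to 15.2 CPM in these mice and 16.8 to 20.1 CPM in wt mice, and Cdkn1a, which encodes p21, at 2.49 to 3.52 and 3.53 to 10.4 CPM, so more residual transcript was counted for Bbc3. Wt mice 1 and 2 stood apart from wt mice 3 and 4 in many genes, which touches Klf2, Klf3, Klf7, Klf11 and Klf13 below. Xist was at 505 to 1485 CPM in 5 mice, TKO mouse 1 and the mice numbered 1 and 2 of the other genotypes, and at 0.806 to 2.54 CPM in 6. In bulk RNA of this kind, fewer cells that express a gene and less RNA of it per cell cannot be told apart.

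Klf4 was the member with the largest difference from wt, and it was high in every mutant mouse. Wt mice 1 to 4 had 2.07, 2.21, 1.24 and 1.96 CPM of Klf4, from only 30 to 89 counts per mouse. Zmat3-/- mice 1 to 4 had 13.8, 15.9, 11.5 and 14.4 CPM (346 to 593 counts). TKO mice 1 to 3 had 17.7, 10.1 and 20.9 CPM (181 to 1557 counts). The lowest mutant mouse, TKO mouse 2, was thus 4.55 times as high as the highest wt mouse. The mean of the wt mice was 1.87 ± 0.430 CPM (SD, n = 4). That of the Zmat3-/- mice was 13.9 ± 1.85 CPM (SD, n = 4), and that of the TKO mice 16.2 ± 5.58 CPM (SD, n = 3). The log2FC of Klf4, from edgeR's quasi-likelihood fit, was 2.89 (standard error 0.206) in Zmat3-/- against wt and 3.05 (standard error 0.291) in TKO against wt, 2 comparisons that share the wt mice.

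Calls of differentially expressed (DE) genes required that the adjusted p-value be under 0.05 and that log2FC exceed 1.5 in size. By this rule 1 of the 9 genes, Klf4, was called in TKO against wt, where 0.241% of the 13275 tested genes were called, and 1, again Klf4, in Zmat3-/- against wt, where 0.319% of 13480 were called. At any size of the change, Klf4 and Klf6 passed the adjusted p-value in TKO against wt (0.294% of all tested genes) and in Zmat3-/- against wt (0.764%). Since these contrasts chose the genes, nothing is read from the counts. The call of Klf4 in TKO against wt was lost without TKO mouse 1, with a log2FC of 2.98, and with the replicate number as a block, with a log2FC of 3.07. In Zmat3-/- against wt the block left Klf4 called, with a log2FC of 2.91. With it Klf6, at a log2FC of 1.12 in Zmat3-/- and 1.03 in TKO against wt, no longer passed the adjusted p-value in either comparison, while in Zmat3-/- against wt the count of all genes called fell from 43 to 8. Within the mice with high Xist the difference of the mean log2 CPM of Klf4 from wt was 2.76 in Zmat3-/- and 3.01 in TKO mice, and within the mice with low Xist it was 2.99 and 3.17, with 2 wt mice and 1 or 2 mutant mice in each.

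**Figure D1:**
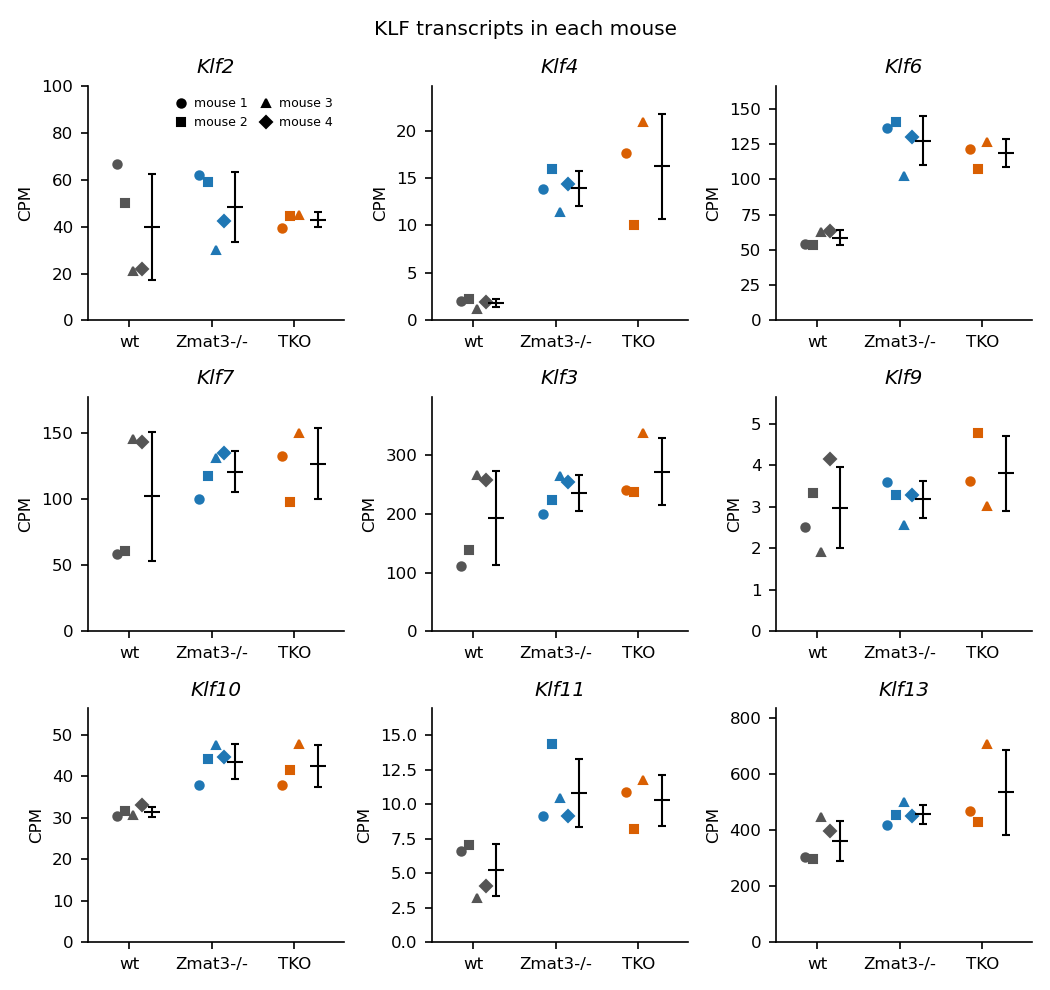
Level of the 9 KLF genes in each mouse in CPM, with 1 point per mouse, the marker giving its replicate number, and the bar giving the mean ± SD of the genotype. The 7 mutant mice lie above all 4 wt mice for Klf4, Klf6, Klf10 and Klf11. Wt mice 1 and 2 lie apart from wt mice 3 and 4 for Klf2, Klf3, Klf7, Klf11 and Klf13, and by less for Klf4 and Klf6.

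The other members of the activator class differed less from wt. Klf6, an early-response factor also described as a tumour suppressor, had 54.3, 53.6, 62.7 and 63.3 CPM in wt mice 1 to 4, and 136, 141, 102 and 130.3 CPM in Zmat3-/- mice 1 to 4. TKO mice 1 to 3 had 122, 107 and 127 CPM of Klf6. Every mutant mouse lay above every wt mouse, and the lowest was 1.61 times as high as the highest wt mouse. The log2FC of Klf6 was 1.12 (standard error 0.130) in Zmat3-/- and 0.97 (standard error 0.126) in TKO against wt mice, below the threshold of 1.5.

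Klf2, the factor that maintains expression of the egress receptor S1PR1 in T cells, showed no such separation. Wt mice 1 to 4 had 66.8, 50.3, 20.9 and 21.8 CPM of Klf2, and Zmat3-/- mice 1 to 4 had 62.0, 59.1, 29.9 and 42.4 CPM. TKO mice 1 to 3 had 39.5, 44.8 and 45.0 CPM, within the range of the wt mice. The lowest wt mouse was at 20.9 CPM and the highest at 66.8 CPM, so the genotypes overlapped throughout. The log2FC of Klf2 was 0.29 (standard error 0.401) in Zmat3-/- and 0.07 (standard error 0.406) in TKO against wt mice.

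Klf7, best known from neurons and also expressed in early lymphocytes, had 58.3, 61.3, 146 and 144 CPM in wt mice 1 to 4. Zmat3-/- mice had 101 to 135 CPM and TKO mice 97.7 to 150.5 CPM of Klf7, between and around the wt pairs. Its log2FC was 0.24 (standard error 0.333) in Zmat3-/- and 0.26 (standard error 0.376) in TKO against wt mice. Klf3, the CtBP-binding repressor of the family, split the wt mice in the same way, with 112, 138, 266 and 257 CPM in wt mice 1 to 4. It ran from 199 to 265 CPM in Zmat3-/- mice and from 237 to 338 CPM in the TKO group, with a log2FC of 0.28 (standard error 0.293) and 0.43 (standard error 0.327) against wt.

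In the Sin3A-binding class, Klf10 and Klf11, both known as genes induced by TGF-β, were higher in every mutant mouse than in every wt mouse, with small steps for Klf10. Klf10 varied little within wt, with 30.4, 31.7, 30.6 and 33.1 CPM in mice 1 to 4. Zmat3-/- mice had 37.8, 44.1, 47.6 and 44.6 CPM of Klf10, and TKO mice 37.8, 41.6 and 47.8 CPM. The gap between the highest wt mouse and the lowest mutant mouse was a factor of 1.14, and the log2FC was 0.47 (standard error 0.0983) in Zmat3-/- and 0.38 (standard error 0.115) in TKO against wt mice. Klf11 had 6.62, 7.08, 3.19 and 4.08 CPM in wt mice, 9.19, 14.4, 10.5 and 9.17 CPM in Zmat3-/- mice, and 10.9, 8.22 and 11.7 CPM in TKO mice. The lowest TKO mouse was 1.16 times as high in Klf11 as the highest wt mouse, and the log2FC was 1.05 (standard error 0.275) and 0.93 (standard error 0.298).

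Klf13, a factor that activates the chemokine gene Ccl5 in T cells, overlapped narrowly between genotypes. It had 304, 296, 445 and 396 CPM in wt mice 1 to 4, 417 to 500.1 CPM in Zmat3-/- mice and 429.6 to 707 CPM in the TKO group. Its log2FC was 0.34 (standard error 0.164) in Zmat3-/- and 0.50 (standard error 0.215) in TKO against wt mice. Klf9, a glucocorticoid-responsive gene, stayed between 1.91 and 4.78 CPM in all 11 mice, and its log2FC was 0.10 (standard error 0.266) and 0.32 (standard error 0.352). All 9 genes thus had a positive log2FC in both comparisons, with a median of 0.34 in Zmat3-/- and 0.43 in TKO against wt, while the median of all tested genes was -0.03 and -0.04. The sign of Klf2, Klf3 and Klf7 changed with the wt pair used as controls, as given further on. Klf2 in TKO against wt was also at -0.14 without wt mouse 3, at -0.12 without wt mouse 4 and at -0.0032 without TKO mouse 2, and Klf9 in Zmat3-/- against wt was at -0.06 without wt mouse 3. In 4 of the 9, Klf4, Klf6, Klf10 and Klf11, every TKO mouse was above every wt mouse, which held for 6.94% of all tested genes. The same 4 genes separated Zmat3-/- from wt mice, which held for 7.31% of all tested genes.

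**Figure D2:**
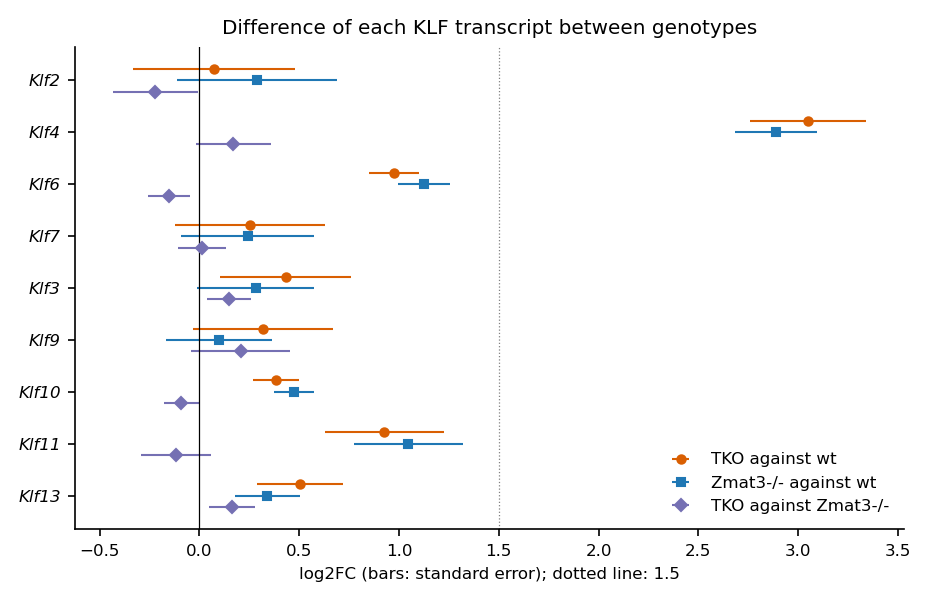
Log2FC of each KLF gene in the 3 comparisons on the horizontal axis, with bars of 1 standard error and a dotted line at 1.5. Klf4 lies at 3.05 and 2.89 against wt, the other 8 genes lie below 1.5, and in TKO against Zmat3-/- all 9 lie between -0.22 and 0.21.

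Between TKO and Zmat3-/- mice, which differ in PUMA and p21, no difference was detected in any of the 9 genes. In TKO against Zmat3-/- mice none was called by edgeR, 0 of 9 at any size of the change and 0 at an unadjusted p under 0.05. Of the 13132 tested genes, 0.122% were called and 4.50% had such a p. Counts of 0 among 9 genes are near these shares, so nothing particular to the 9 is read from them. DESeq2 also called 0. The TKO and Zmat3-/- mice are those of the comparisons with wt that chose the genes. Klf4 had a log2FC of 0.17 (95% interval -0.24 to 0.59, edgeR's adjusted p = 0.982), which leaves room for a difference of up to about that size. Klf6 had -0.15 (95% interval -0.39 to 0.08, adjusted p = 0.982) and Klf11 -0.12 (95% interval -0.50 to 0.27, adjusted p = 0.982). Klf2 had the lowest value, -0.22 (95% interval -0.69 to 0.25), and Klf9 the highest, 0.21 (95% interval -0.34 to 0.76). Over the 9 genes the adjusted p-values ran from 0.982 to 0.998. The values of Klf4 in the 3 TKO mice, 10.1 to 20.9 CPM, enclosed those of the 4 Zmat3-/- mice.

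Per length of exon, Klf4 held the eighth or the ninth place among the 9 genes in each wt mouse and the seventh in each mutant mouse. Levels are compared between genes as CPM per kb of merged exons, which are 1.85 kb long in Klf2, 3.05 kb in Klf4 and up to 11.2 kb in Klf3. In wt thymocytes Klf13 led with 47.9 ± 9.59 CPM per kb (SD, n = 4), above the range of the next gene. Klf2 (21.6 ± 12.2), Klf3 (17.2 ± 7.07), Klf6 (13.3 ± 1.19), Klf7 (12.6 ± 6.03) and Klf10 (7.53 ± 0.292) followed. From Klf2 to Klf10 the range of each gene over the mice overlapped that of the next, and Klf10 lay above Klf11. Klf11 (1.21 ± 0.438), Klf9 (0.618 ± 0.203) and Klf4 (0.613 ± 0.141) came last, each overlapping its neighbour, so Klf4 and Klf9 could not be ordered in wt.

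In Zmat3-/- mice Klf4 had 4.56 ± 0.607 CPM per kb (SD, n = 4), below the range of Klf10 at 10.4 ± 0.987 and above that of Klf11 at 2.49 ± 0.568. In TKO mice it held the same place, with 5.32 ± 1.83 CPM per kb (SD, n = 3) between Klf10 at 10.1 ± 1.21 and Klf11 at 2.37 ± 0.424. Klf6 was the second gene in both mutants, at 29.0 ± 3.96 and 27.0 ± 2.29 CPM per kb, with a range that overlapped that of the third. With the length of the longest transcript in place of the merged exons, 7 of the 9 genes kept their place in wt, Klf2 and Klf3 changed places, and Klf3 came before Klf6 in the mutants. Klf4 made up 0.302% to 0.663% of the summed level per kb of the 9 genes in wt mice. In Zmat3-/- mice this share was 2.30% to 2.92%, and in the TKO group it was 2.13% to 3.47%. The summed level itself was 123 ± 11.9 CPM per kb (SD, n = 4) in wt mice, 169.6 ± 6.45 CPM per kb (SD, n = 4) in Zmat3-/- mice and 179.6 ± 33.1 CPM per kb (SD, n = 3) in the TKO group. Of the KLF genes outside the 9, Klf16 lay above Klf4 in the means of every genotype, with 6.45, 6.50 and 7.29 CPM per kb in wt, Zmat3-/- and TKO mice.

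**Figure D3:**
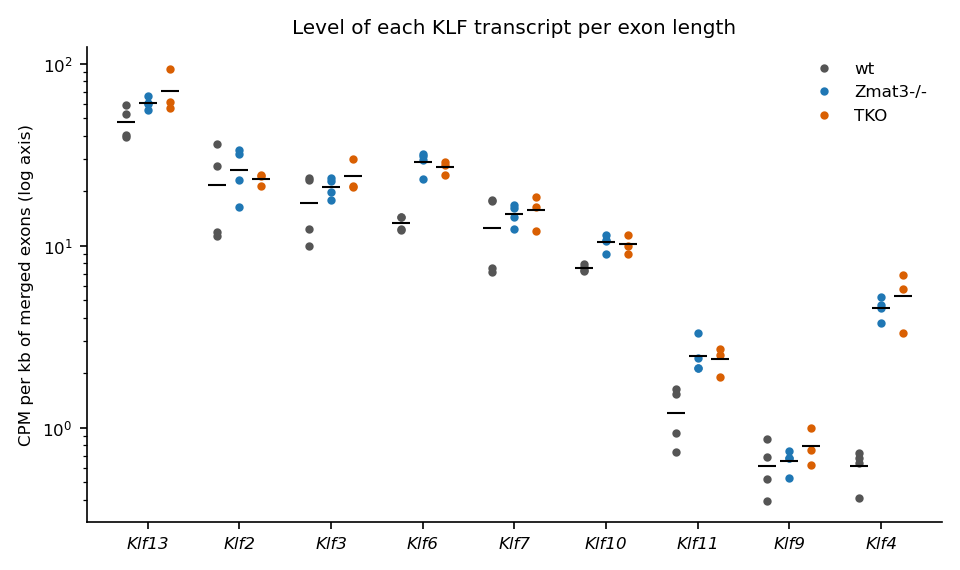
Level of each KLF gene in CPM per kb of merged exons on a log axis, with 1 point per mouse and a dash at the mean of the genotype, ordered by the wt mean. Klf13 is highest in all 3 genotypes, and Klf4 moves from 0.613 in wt to 4.56 in Zmat3-/- and 5.32 in TKO mice, above Klf11 and Klf9.

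The split among the wt mice set the values of several members. The mean log2 CPM of wt mice 3 and 4 minus that of wt mice 1 and 2 was -1.44 for Klf2 and -0.91 for Klf11, and 1.27 for Klf7, 1.07 for Klf3 and 0.48 for Klf13. For Klf4 it was -0.44, for Klf6 0.22, for Klf10 0.03 and for Klf9 -0.04. Among the 5394 genes with at least 5 kb of merged exons the median of this difference was 0.35, and among the 2274 genes with less than 2 kb it was -0.77. Longer transcripts thus tended to be lower in wt mice 1 and 2, with a difference above 0 in 71.0% of the longer and 25.5% of the shorter set. Klf3, Klf7 and Klf13 are in the longer set and Klf2 in the shorter. Klf4, Klf6, Klf9, Klf10 and Klf11 have 2 to 5 kb, where the median was -0.27. Between Zmat3-/- mice 3 and 4 and mice 1 and 2 the medians of the longer and the shorter set were 0.04 and -0.06. The difference there was -0.76 for Klf2, 0.29 for Klf7 and 0.30 for Klf3. The part of transcript length in the difference of each KLF gene was not tested.

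With wt mice 1 and 2 alone as the controls, a choice made after seeing the data, the log2FC of Klf7 was 1.03 in Zmat3-/- and 1.06 in TKO mice, and with wt mice 3 and 4 alone it was -0.28 and -0.26. Klf3 went from 0.93 and 1.09 to -0.17 and -0.02, and Klf2 from -0.26 and -0.465 to 1.16 and 0.95, so the direction of all 3 genes hung on the wt mice used. Klf13 went from 0.62 and 0.79 to 0.10 and 0.27. Klf11 rose from 0.67 and 0.56 to 1.55 and 1.43, and with wt mice 3 and 4 alone it was called in Zmat3-/- mice. Klf4, by contrast, stayed at 2.71 and 2.89 with wt mice 1 and 2 and at 3.08 and 3.26 with wt mice 3 and 4. Klf6 had 1.25 and 1.11, then 1.00 and 0.85, and Klf10 had 0.50 and 0.42, then 0.43 and 0.35.

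**Figure D4:**
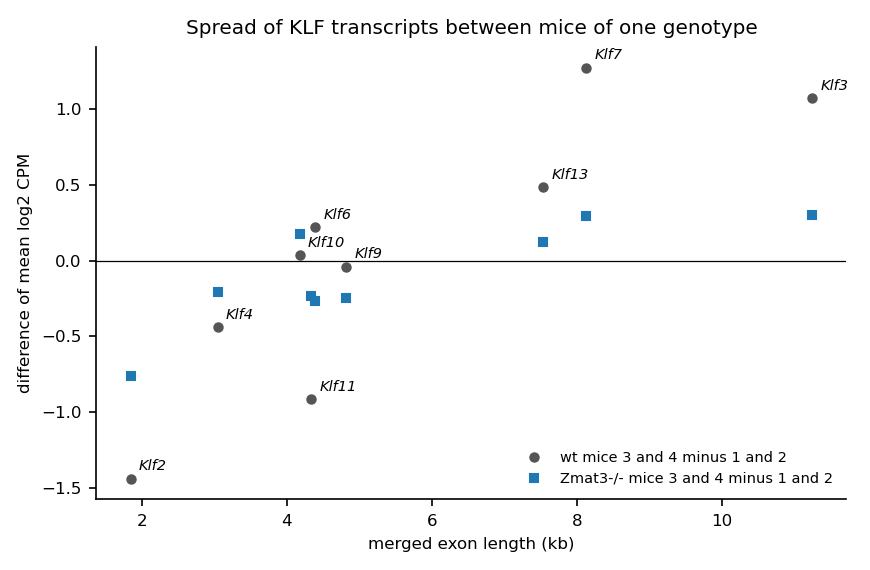
Difference of the mean log2 CPM between mice 3 and 4 and mice 1 and 2 of one genotype, against the merged exon length of each KLF gene in kb. In wt mice it runs from -1.44 for Klf2 to 1.27 for Klf7 and in Zmat3-/- mice from -0.76 to 0.30.

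Markers of other cell types were detected in these suspensions, and none of their 5 lists held a gene called by edgeR or by DESeq2 in any comparison, with 0 to 2 genes of a list at an unadjusted p under 0.05 in edgeR. Klf4 is known from monocytes and epithelium as well. The 12 myeloid genes summed to 203 to 375 CPM in wt mice, 286 to 376 CPM in Zmat3-/- mice and 194 to 402 CPM in the TKO group, and the 10 thymic epithelial genes to 62.9 to 204, 120.3 to 151 and 94.7 to 140.2 CPM. The ranges of each sum overlapped between the genotypes. Within wt the epithelial sum was 204 and 184 CPM in mice 1 and 2 and 62.9 and 86.3 CPM in mice 3 and 4, and the myeloid sum was 335 and 375 against 218 and 203 CPM, so both sums were higher in the same wt mice as Klf2 and Klf11, and as Klf4, which had 2.07 and 2.21 against 1.24 and 1.96 CPM. The sums of the 11 endothelial and stromal genes were 139 to 155 CPM in wt mice, 138 to 161 CPM in Zmat3-/- mice and 134 to 154 CPM in the TKO group, most of it from the endothelial gene Pecam1, with means of 127, 117 and 115 CPM. The median log2FC of the tested genes of this list was higher than that of all tested genes, 0.70 in Zmat3-/- (7 tested) and 0.53 in TKO against wt mice (6 tested). Col3a1, a fibroblast collagen gene, had means of 3.33, 8.20 and 7.08 CPM in wt, Zmat3-/- and TKO mice, and it was above every wt mouse in every Zmat3-/- mouse, as Klf4 was, but not in every TKO mouse. Its log2FC was 1.30 in Zmat3-/- (edgeR's adjusted p = 0.103) and 1.09 in TKO against wt mice (adjusted p = 0.61). Col1a1 had a log2FC of 1.02 and 0.76, and the stromal proteoglycan gene Dcn one of 0.70 and 0.30, in the same order. The list was not uniform, with 5 of 7 tested genes higher in Zmat3-/- and 4 of 6 in TKO against wt mice. Pecam1 had -0.12 and -0.20, Pdgfrb 0.29 and -0.06, and Acta2 -0.12 in Zmat3-/- against wt mice. The 6 B cell genes summed to 53.1 to 111, 55.9 to 70.8 and 51.7 to 71.8 CPM. The 8 genes of mature thymocytes, with 0 called and 0 to 4 at an unadjusted p under 0.05, summed to 878 to 1148, 907 to 1043 and 981 to 1012 CPM in the same order. The 6 erythroid genes summed to more, from 880.1 to 8558 CPM in wt mice, from 1152 to 5705 CPM in Zmat3-/- mice and from 2676 to 3720 CPM in the TKO group. The part of these cells in the levels of Klf2, Klf4 and Klf11 was not tested.

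Of the remaining 8 KLF genes, 4 passed the filter on low counts in Zmat3-/- and 3 in TKO against wt, and edgeR and DESeq2 called 0 of them, with 0 at an unadjusted p under 0.05 in edgeR. Klf16, of the Sin3A class, was the highest of them, with 13.3 to 23.5 CPM in wt mice, and its log2FC was the lowest of the tested ones, 0.02 in Zmat3-/- and 0.13 in TKO against wt. Klf12, a CtBP-binding repressor, had the highest log2FC, 0.86 (standard error 0.632, edgeR's adjusted p = 0.535) and 0.69 (standard error 0.723, adjusted p = 0.722), on 0.122 to 2.04 CPM in wt mice. Klf8 reached at most 3.32 CPM in wt mice, Klf15 1.45 CPM and Klf5 0.833 CPM in any mouse, and Klf1, Klf14 and Klf17 had at most 22 counts in any mouse. Of the SP factors, which share the zinc fingers of the KLF proteins, 5 of 9 were tested and none was called. Sp4 had the highest log2FC, 0.62 in Zmat3-/- (adjusted p = 0.573) and 0.61 in TKO against wt mice (adjusted p = 0.692), and Sp6 the lowest, -0.06 and -0.03.

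Genes that act with KLF proteins or above them did not pass the test. Of 11 corepressors and coactivators 7 were higher and 4 lower in each comparison with wt, with a median log2FC of 0.10 in Zmat3-/- and 0.18 in TKO mice. Ctbp2, the paralogue of Ctbp1, had the highest value, 1.11 in Zmat3-/- (edgeR's adjusted p = 0.106) and 0.83 in TKO against wt mice (adjusted p = 0.553). Its level was low, with a mean of 1.16 CPM in wt mice (20 to 55 counts), whereas Ctbp1 had a mean of 286 CPM. Ctbp1 had a log2FC of -0.05 and -0.02, and the coregulator Fhl3 had the lowest value, -0.40 and -0.52. Of 10 regulators known to act on Klf2 or Klf4, such as ERK5 (Mapk7), MEF2 and FOXO factors, 9 were higher in Zmat3-/- and 8 in TKO against wt, with medians of 0.31 and 0.38. Mef2c had the highest value in Zmat3-/-, 0.60, and Foxo3 in TKO mice, 0.46, with Mapk7 the lowest at -0.05 and -0.07.

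Genes of T cell exit and homing known to change when KLF2 is lost were measured in full, and none of the 6 was called. At an unadjusted p under 0.05 in edgeR were 4 in Zmat3-/- against wt and 0 in TKO against wt. Of all tested genes, 16.1% and 10.3% had such a p. All 6 had a negative log2FC in Zmat3-/- against wt (median -0.43) and 5 of 6 in TKO against wt (median -0.35), where Klf2 itself had 0.29 and 0.07. The homing receptor gene Ccr7 was lowest, at -0.54 in both (edgeR's adjusted p = 0.289 and 0.517). S1pr1 had -0.39 and -0.31 (adjusted p = 0.303 and 0.594). S1pr4 had -0.48 and -0.39 (adjusted p = 0.150 and 0.493), and it was lower in every Zmat3-/- mouse than in every wt mouse. Cxcr3, a chemokine receptor gene, was highest in TKO mice at 0.02. Of 7 cell cycle genes known as KLF4 targets none was called, with medians of 0.04 in Zmat3-/- and -0.06 in TKO against wt. Ccnd1, which encodes cyclin D1 and is known to be repressed by KLF4, had 0.68 (edgeR's adjusted p = 0.295) and 0.65 (adjusted p = 0.501). Ccne1, another cyclin gene, was lowest in Zmat3-/- against wt, at -0.45 (adjusted p = 0.392), and had -0.47 in TKO against wt (adjusted p = 0.598). Cdkn1a, the p21 gene and a KLF4 target, is itself targeted in TKO mice and had 0.01 in Zmat3-/- against wt, beside a Klf4 log2FC of 2.89.

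Over the 6 lists, 0 of 42 tested genes were called by edgeR in TKO against wt and 0 of 43 in Zmat3-/- against wt, with 4 and 10 at an unadjusted p under 0.05, as 10.3% and 16.1% of all tested genes were. DESeq2 called 0 in each at a log2FC above 1.5, and 2 and 5 at any size, where 2.88% and 8.03% of all tested genes passed. With 1 surrogate variable and the Xist level in DESeq2, 18 and 25 passed at any size and 0 at 1.5, where 19.3% and 37.2% of all tested genes passed at any size. In TKO against Zmat3-/- mice 0 of 43 were called, with 1 at an unadjusted p under 0.05, Cdkn1a, at a log2FC of -1.12 (edgeR's adjusted p = 0.384).

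Immediate-early genes, a list also chosen with earlier results of these data known, held calls. Of 16, 3 were called in Zmat3-/- (against 0.319% of all tested genes) and 3 in TKO against wt (against 0.241%), the same genes in both: Fosb, Sik1 and Dusp1. Since the list was chosen in this way, nothing is read from these counts, and the values are a description. Fosb, an AP-1 subunit, had a log2FC of 3.73 (standard error 0.326) and 3.84 (standard error 0.433). Sik1, a salt-inducible kinase, had 2.90 (standard error 0.143) and 3.09 (standard error 0.156). Dusp1, a MAP kinase phosphatase, had 2.29 (standard error 0.285) and 2.37 (standard error 0.322). With the replicate block, without TKO mouse 1 or without TKO mouse 3, 1 of the 16, Sik1, was called in TKO against wt, and Dusp1 also lost its call there without wt mouse 2, 3 or 4 or TKO mouse 2. In Zmat3-/- against wt Dusp1 lost its call with the block and without each Zmat3-/- mouse in turn, whereas Fosb and Sik1 were called under each of these. The list was not uniform, since Egr2, a T cell receptor-induced factor, had -0.58 and -0.67, and 12 of 16 genes were higher in each comparison. The median of the list was 0.83 in Zmat3-/- and 0.80 in TKO mice. Within wt the summed level of the list was 1972 and 1777 CPM in mice 1 and 2 and 1077 and 1062 CPM in mice 3 and 4, against 2155 to 2632 in Zmat3-/- and 2215 to 2712 CPM in TKO mice. It was thus lower in wt mice 3 and 4, in which Klf4 was at 1.24 and 1.96 CPM, than in wt mice 1 and 2, in which Klf4 was at 2.07 and 2.21 CPM.

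The pattern of Klf4 over the 11 mice was compared among the 13536 genes with enough counts. The measure was the root mean square (RMS) difference of log2 CPM after each gene's mean over the mice was removed. Klf4 was chosen for this pattern, so the likeness is a description without a test. Sik1 was nearest, with a RMS difference of 0.308, followed by Dusp1 (0.394) and Plk2, a polo-like kinase (0.413). Fosb (0.503), the nuclear receptor gene Nr4a2 (0.504) and Trib1, a pseudokinase gene (0.514), were also among the 10 nearest, so 3 of the 10 were the called immediate-early genes. Sik1 had a mean of 16.4 CPM in wt, 122 in Zmat3-/- and 144 in TKO mice, and Plk2 one of 0.982, 6.46 and 7.26 CPM. The other 4 were the T cell receptor segment Trav14d-3-dv8 (0.483), the histone gene Hist1h2bg (0.516) and the non-coding genes Lncppara (0.527) and Gm26885 (0.543). Trav14d-3-dv8 and Hist1h2bg have close copies, between which reads can be split, and Gm26885 is annotated as antisense, which a library without strand cannot tell from its partner. Klf11 was the nearest member of the family at the 63rd place (0.946), followed by Klf6 at the 71st (0.957), and Klf7 was at the 2767th (1.35) and Klf9 at the 3159th (1.37).

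**Figure D5:**
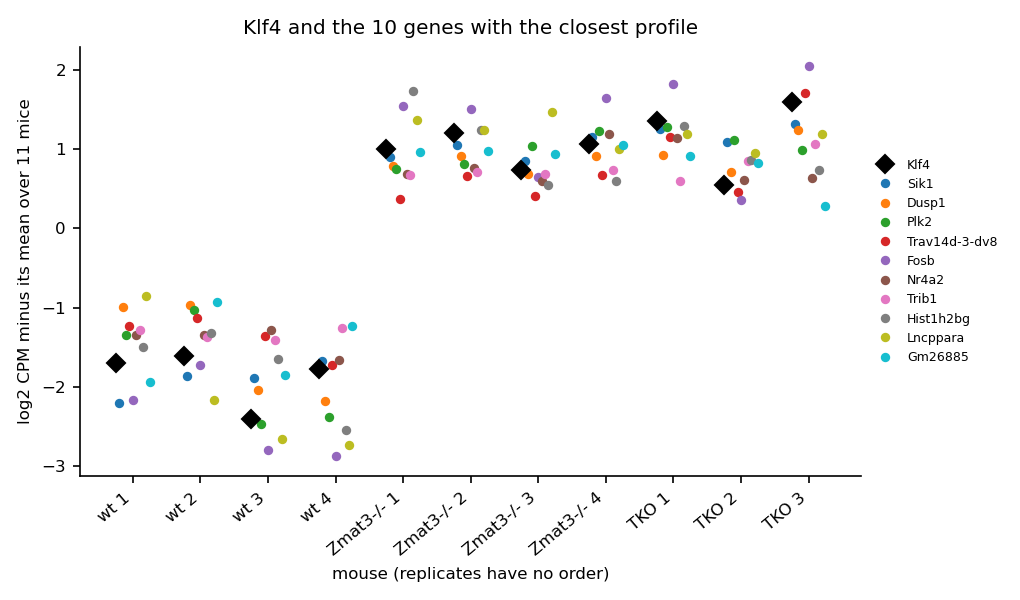
Log2 CPM of Klf4 (black diamonds) and of the 10 genes with the closest pattern in each of the 11 mice, after each gene's mean was removed. The 4 wt mice lie below 0 and the 7 mutant mice above 0 for all 11 genes, and Sik1, at a RMS difference of 0.308, lies closest to Klf4.

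Klf2 had other neighbours. Jund, an AP-1 subunit whose log2FC was 0.03 in Zmat3-/- and 0.02 in TKO against wt, was nearest with a RMS difference of 0.210, followed by Hes1, a NOTCH-induced repressor (0.237). Pla2g16 (0.239), Macrod2 (0.240) and Fsip1 (0.240) came next. Pla2g16, a phospholipase gene, had a mean of 18.4 CPM in wt, 18.7 in Zmat3-/- and 18.1 in TKO mice. Klf4 stood at the 13080th place for Klf2, with a RMS difference of 1.34.

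Coordinates on GRCm38 place Klf4 on chromosome 4 from 55527143 to 55532466 (minus strand, ENSMUSG00000003032.8), Klf6 on chromosome 13 from 5861482 to 5870394 (plus strand, ENSMUSG00000000078.7) and Klf11 on chromosome 12 from 24651274 to 24662789 (plus strand, ENSMUSG00000020653.12). Klf2 lies on chromosome 8 from 72319033 to 72321656 (plus strand, ENSMUSG00000055148.7). Klf10 lies on chromosome 15, Klf3 on 5, Klf7 on 1, Klf9 on 19 and Klf13 on 7. No other annotated gene overlaps Klf4, Klf6, Klf10, Klf11 or Klf2. Klf3 overlaps the opposite-strand transcript Gm20033, counted at 8.50 to 26.8 CPM, and C230096K16Rik, at 5.63 to 10.4 CPM, and since the kit keeps no strand some reads of Klf3 cannot be told from theirs. The genes that overlap Klf7, Klf9 and Klf13 were at 0.996 CPM or less in every mouse.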

How the data were processed

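Thymocyte RNA from 4 wt, 4 Zmat3-/- and 3 TKO mice was prepared with the TruSeq RNA v2 kit and sequenced with paired ends. The authors ran Salmon within nf-core/rnaseq (GRCm38.p6, GENCODE vM25) and deposited estimated counts per gene, without normalization and in whole numbers, so rounding changed none of them. Samples were grouped by the genotype and number in their labels. Replicates are mice, and p-values measure the spread between these mice.

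Genes were named and placed with GENCODE M21 (GRCm38), which holds 54166 of the 54418 identifiers. Counts were scaled to the depth of the smallest library, and genes that then reached 20 in a number of mice equal to the size of the smaller genotype were tested pairwise with edgeR 4.0.16 (R 4.3.3): TMM normalization, quasi-likelihood F-test, two-sided, Benjamini-Hochberg adjustment over all tested genes. As in the paper, the tests omitted Xist, genes of chromosome Y and of ribosomal RNA, and immunoglobulin genes that code for no protein. Standard errors were obtained from log2FC and the F statistic. The paper used DESeq2 with sex and surrogate variables. The labels give no sex, so the Xist level and 1 surrogate variable (sva 3.50.0) entered DESeq2 1.42.0 as an alternative. Log2 CPM values had a prior count of 2. Counting floors (3 counts) cover counting error only. The script was tested on simulated data.

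The members, the lists and the motifs were chosen with earlier results of these data known. Named genes are the 9 members, in each list the called genes (at most 3 highest and 3 lowest) or else the extremes of log2FC, and the 10 and 5 genes nearest in pattern to Klf4 and Klf2. S1pr1, S1pr4, Egr2, Bbc3, Pecam1, Col1a1, Dcn, Pdgfrb, Acta2, Ctbp1, Klf8, Klf5, Klf15, Klf1, Klf14 and Klf17 were added after their values were seen. Deviations of same-numbered mice from their group means correlated at 0.338, 0.127, 0.256 and 0.303 between Zmat3-/- and wt mice, all over 0.1. No source describes these mice as pairs, and the main fit took none. The numbers in the labels entered as a block in an alternative fit only. Zmat3-/- mice 1 and 2 correlated more with the other wt mouse of numbers 1 and 2 (0.378 and 0.180) than with their own. Correlations within numbers 1 and 2 and within 3 and 4 were positive and those across negative, which is also the split by Xist level. Pairing by number and this split therefore cannot be told apart. Alternatives were RLE size factors, DESeq2, no filter, all genotypes in one fit, the replicate block, the Xist level and each mouse left out, and, added after seeing the data, the wt pairs.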

Additional observations from a re-analysis of the deposited data

How the results depend on the processing

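The log2FC of Klf4 against wt stayed positive under every alternative, from 2.71 to 3.08 in Zmat3-/- mice, where it was called in all 17, and from 2.89 to 3.27 in TKO mice. In TKO against wt the call was lost with the replicate block (log2FC 3.07, 0 members called) and without TKO mouse 1 (2.98, 0 members called), and leaving out each mouse gave 2.91 to 3.27 and 0 to 1 members called. Without the fold threshold, 2 members passed in each comparison with wt. With wt mice 3 and 4 only, 2 members were called in Zmat3-/- mice. The call of Klf6 at any fold was lost in TKO against wt with the block and when any mouse other than wt mouse 1 was left out, and in Zmat3-/- against wt with the block and without Zmat3-/- mouse 1, 2 or 4. In TKO against Zmat3-/- no member was called under any alternative, with 1 at an unadjusted p under 0.05 with the block, 2 without Zmat3-/- mouse 3, 1 without TKO mouse 2 and 0 under the others, and 7 small values changed sign: Klf7 (0.015) with the surrogate variable (-0.042) and without 1 mouse (4 times, range -0.057 to 0.14), Klf9 without TKO mouse 2 (range -0.017 to 0.42 without 1 mouse) and Klf11 without Zmat3-/- mouse 2 (range -0.20 to 0.047).

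In the lists, alternatives added after seeing the data called 2 linked genes against wt with wt mice 1 and 2 only (Sp4 with Cdkn1a in TKO and with Klf12 in Zmat3-/- mice). The 3 immediate-early genes called (of 32 and 43 genes called in all) became 5 and 6 with DESeq2 (of 103 and 122), 7 and 7 with the surrogate variable (of 166 and 209), 5 and 6 with wt mice 1 and 2 (of 676 and 733) and 7 and 7 with wt mice 3 and 4 (of 245 and 439), in TKO and Zmat3-/- against wt. The block left 1 in TKO mice, and leaving out each mouse 1 to 3. The count of all genes called ran from 15 to 676 in TKO and from 8 to 733 in Zmat3-/- against wt, and from 14 to 45 in TKO against Zmat3-/- mice. The cause of these shifts was not tested. Same-numbered TKO and wt mice correlated at 0.0725, 0.302 and 0.405, and TKO and Zmat3-/- mice at 0.194, 0.0105 and 0.174. Their numbers were not taken as pairs in the main fit either, and the block left 16 and 15 genes called there, against 32 and 16. Beside Klf4 in TKO against wt and Klf6 in both, the block changed no member's call. Depth limits Klf4 in wt mice, where 30 to 89 counts were made, and 4 mice or fewer per genotype limit all intervals.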
